A study of Homo sapiens with 9 samples.

Results

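Small nucleolar RNA (snoRNA) host genes were followed in K562, an established human erythroleukaemia cell line that carries the BCR-ABL1 fusion kinase. The members were the Gencode v44 genes named SNHG followed by a number, together with GAS5, ZFAS1, DANCR, EPB41L4A-AS1, TAF1D and RACK1. The rule found 34 genes of the 52349 counted, and used names only and no measured value. The measurement was TIF-Seq2, in which the 5′ end and the 3′ end of the same RNA molecule are sequenced as a read pair and each molecule is counted once by its molecular identifier. There were 2 libraries from cells given the solvent DMSO for 24 h and 2 libraries from cells given 1 µM imatinib, an inhibitor of the ABL kinase, for 24 h. The study calls the 2 libraries of a condition biological replicates, but gives no detail of separate cultures, so the p-values measure the spread between these libraries, which may be partly technical. Each library is a bulk sample of 1 cell line, in which fewer cells of a kind and less RNA per cell cannot be told apart.

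snoRNAs guide chemical modification of ribosomal and spliceosomal RNA: the box C/D class guides methylation of the ribose, the box H/ACA class guides conversion of uridine to pseudouridine, and the related scaRNAs act in Cajal bodies. In human cells most of them lie in introns, and the snoRNA is trimmed out of the intron after the host transcript has been spliced. Many host genes encode no conserved protein, their spliced RNAs are often removed by nonsense-mediated decay, and many start with a cytidine followed by pyrimidines, the terminal oligopyrimidine (TOP) start known from ribosomal protein genes.

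Of the 34 members, 28 had at least 100 read pairs over the 4 libraries, 21 had at least 1000, and 2 had fewer than 100 (SNHG22 with 40 pairs and SNHG31 with 11). SNHG14, SNHG18, SNHG27 and SNHG28 had 0 pairs, which allows a level of up to 0.217 CPM (pairs per 1000000 pairs) over the 4 libraries by counting error alone. The members together took 1.01% and 0.944% of the pairs in the DMSO libraries and 0.999% and 1.13% in the imatinib libraries. The libraries held 2049853 to 4636566 pairs after filtering, and imatinib replicate 2 was the shallowest. Globin and glycophorin genes that mark erythroid K562 cells were detected, and 4 of 7 marker genes rose with imatinib, none fell, and their summed level was 5987 and 4964 CPM in DMSO against 16810 and 16819 in imatinib. Of 7 markers of other cell types, 2 passed the filter on low counts and neither was called, with a summed level of 157 and 171 in DMSO and 141 and 115 in imatinib. The part of the erythroid change in the results below was not tested.

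The start sites are shown first, because the members divide by the bases at which their RNAs begin. Each line gives 30 bases of hg38 read on the strand of the gene, from 10 bases before to 19 bases after the most used 5′ end, with the start base and the 4 bases after it in capitals. The first lines are members with most pairs, all of which began with a C followed by 4 bases that were each C or T, here called the pyrimidine tract.
RACK1, chr5:181243883-181243912, minus strand: ttctctctctCTTTCactgcaaggcggcgg
SNHG5, chr6:85678714-85678743, minus strand: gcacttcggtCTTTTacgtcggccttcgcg
GAS5, chr1:173867970-173867999, minus strand: accatactgtCTTTTcgaggtaggagtcga
SNHG8, chr4:118278748-118278777, plus strand: aggcctcggcCTTTCacattcgggaagcgt
SNHG29, chr17:16439027-16439056, plus strand: aaggtgtgacCTTTTcattcccgttgttat
SNHG3, chr1:28506034-28506063, plus strand: tttctctctcCTTTTtggagacagattcgc
ZFAS1, chr20:49278632-49278661, plus strand: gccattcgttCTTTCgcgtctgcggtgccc

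The next lines are the members among the 20 with most pairs whose most used start lacked the tract. SNHG15 is added because it had the largest fold change among the members, a choice made after its values were seen.
SNHG1, chr11:62855866-62855895, minus strand: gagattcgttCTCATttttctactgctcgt
SNHG7, chr9:136728165-136728194, minus strand: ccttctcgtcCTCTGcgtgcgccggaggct
SNHG30, chr17:35568121-35568150, plus strand: gcggagaagcAAAGGagagggaagctggaa
SNHG17, chr20:38435309-38435338, minus strand: gtgtggcctcAGTCCttcgccgtccctcgc
SNHG21, chr15:82750562-82750591, plus strand: gagtggatttACTAGgaaggtgggacgttg
SNHG11, chr20:38446683-38446712, plus strand: ggcgctgagcACTAGagagagcgtcttgtg
SNHG15, chr7:44986603-44986632, minus strand: tgtactccgtACTCCgtacttcgtagtcgc

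Among the 28 members with at least 100 pairs, the most used start was a C in 20, an A in 7 and a G in 1 (SNHG10). The tract stood at the most used start in 18 of the 28 (64.3%), in 6.68% of all 8439 genes with at least 100 pairs, in 9.20% of 674 lncRNA genes and in 85.9% of 85 cytosolic ribosomal protein genes. SNHG1 and SNHG7 started at a C followed by a tract that a purine broke, at the third following base in SNHG1 and the fourth in SNHG7, and 8 members started at A or G. The share in the members thus lay between those of lncRNA genes and of ribosomal protein genes, which is a description of the sequence and not a test. The most used start was within 10 bp of an annotated start in 25 of the 28 and within 200 bp in all 28.

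Sharpness was taken as the share of a gene's pairs that began at its most used position, and as the width from the 10th to the 90th percentile of its 5′ ends. The median member put 33.0% of its pairs at 1 base and 63.0% within 2 nt of it, against 15.9% and 23.5% in the median gene, 18.9% and 26.5% in the median lncRNA gene and 19.1% and 45.3% in the median ribosomal protein gene. The median width was 34.5 nt in members, 50.0 nt in ribosomal protein genes, 158 nt in lncRNA genes and 3168 nt over all genes. Over all genes the width counts 5′ ends anywhere in the gene, so a few starts far inside a long gene widen it. Members with the tract had a median share at the most used base of 38.1% and a median width of 34.0 nt (n = 18), and the other members had 20.2% and 54.5 nt (n = 10).

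By the share at the most used base, the leading members were SNHG1, SNHG26 (61.1%, from 126 pairs, with a width of 275 nt), SNHG7, SNHG19, SNHG21 (50.4%) and SNHG5. SNHG1, which carries several box C/D snoRNAs including SNORD22, a processing factor of 18S ribosomal RNA, put 61.3% of its pairs at 1 base, and its width was 4 nt. SNHG7, host of SNORA17A and SNORA17B, put 58.9% at 1 base. Its width was 6 nt over all pairs, but 59 and 5 nt in the DMSO libraries and 1103 and 5 nt in the imatinib libraries. SNHG5, host of SNORD50A and SNORD50B, put 49.0% at 1 base and 85.6% within 2 nt, with a width of 4 nt. A high share at 1 base was thus not limited to the tract, which SNHG1, SNHG7 and SNHG21 lacked. SNHG3 (43.5% at 1 base), SNHG29 (42.8%), SNHG25 (44.8%), SNHG12 (48.3%) and SNHG19 (56.5%) also had widths of 4 or 5 nt, and 9 members had a width of 10 nt or less.

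Other members started over a wider stretch. RACK1, a scaffold protein of the small ribosomal subunit and the member with most pairs (39673), put 12.2% at its most used base and 32.8% within 2 nt, with a width of 72 nt. SNHG17, host of the SNORA71 family, put 12.0% at 1 base with a width of 86 nt, and SNHG15, host of SNORA9, put 10.8% at 1 base with a width of 226 nt. The width was over 200 nt in 6 members. For GAS5, 13.8% and 16.2% of pairs in DMSO and 15.0% and 13.9% in imatinib began more than 200 nt downstream of the main start, and its width was 1428 nt. TAF1D, which encodes a subunit of the RNA polymerase I factor SL1 and carries 8 snoRNAs, had a width of 3306 nt, with 13.9% and 15.8% of pairs beginning more than 200 nt downstream in DMSO and 15.8% and 15.7% in imatinib.

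The 3′ ends lay close to the annotation. The most used 3′ end lay within 10 bp of an annotated end in 27 of the 28 members, and within 125 bp in SNHG21. A hexamer AATAAA or ATTAAA stood within the 40 bases before it in 28 of the 28, against 83.8% of all genes and 97.6% of ribosomal protein genes, and AATAAA itself in 25 (89.3%) against 67.1% of all genes. A poly(A) site was defined as 3′ ends joined at up to 10 bp that held at least 5% of a gene's pairs. Positions with too few pairs were left out before joining, as described with the processing. By this definition 19 members had 1 site, 6 had 2, SNHG16 and TAF1D had 3, and SNHG26, with 126 pairs, had 4. A single site was found in 67.9% of members, 45.5% of all genes, 40.8% of lncRNA genes and 81.2% of ribosomal protein genes. The median share of the main site was 94.4% in members and 77.1% over all genes.

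Of the members with more than 1 site, SNHG5, SNHG7 and TAF1D are shown with their poly(A) windows. These are 30 bases of hg38 that end at the most used 3′ base, with the hexamer in capitals. SNHG7 had no hexamer in the 30 bases printed for its second site. The same windows, not printed, held none at sites 2 and 3 of SNHG16, site 2 of SNHG30 and site 4 of SNHG26.
SNHG5 main site, chr6:85677083-85677112, minus strand: caaacatgaaAATAAAacatgtaattttgg
SNHG5 second site, chr6:85677009-85677038, minus strand: acatggggagcATTAAAtggaaaatccact
SNHG7 main site, chr9:136724659-136724688, minus strand: aggatgaagtgaATTAAAagatttaaatgc
SNHG7 second site, chr9:136724596-136724625, minus strand: aaaatttgagagtaaattggtcttgaatgg
TAF1D main site, chr11:93730282-93730311, minus strand: acatatacacaATTAAAaaacctttacact
TAF1D second site, chr11:93735934-93735963, minus strand: aaccATTAAAacaccagagaaaatacatag

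The second site lay within 125 nt of the first in SNHG5, SNHG6, SNHG7, SNHG21 and SNHG30, and farther away in SNHG16, TAF1D, SNHG20 (4244 nt, from 144 pairs) and SNHG26 (2853 nt, from 126 pairs). SNHG5 ended at its main site in 75.2% and 81.0% of pairs in DMSO and 77.4% and 76.3% in imatinib, and 74 nt downstream in 23.0% and 17.2% against 19.9% and 22.5%. SNHG6, the host of SNORD87, ended almost evenly at sites 51 nt apart, with 55.2% and 51.6% at the main site in DMSO and 51.1% and 48.5% in imatinib. SNHG7 used its main site in 79.7% and 62.5% of pairs in DMSO and 63.3% and 83.1% in imatinib, so that the libraries of each condition differed from each other more than the conditions did. SNHG16, host of 3 SNORD1 snoRNAs, ended 1764 nt before its main site in 15.3% and 15.3% of pairs in DMSO and 19.3% and 20.4% in imatinib. The second TAF1D site lay 5652 nt before the main one and upstream of all 8 of its snoRNAs. It held 18.7% and 26.3% of TAF1D pairs in DMSO and 45.6% and 25.7% in imatinib, where DMSO replicate 2 and imatinib replicate 2 nearly coincided. SNHG30 used its main site in 72.4% and 76.8% of pairs in DMSO and 81.9% and 75.5% in imatinib, and SNHG21 in 75.2% and 77.8% against 75% and 69.2%.

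**Figure D1:**
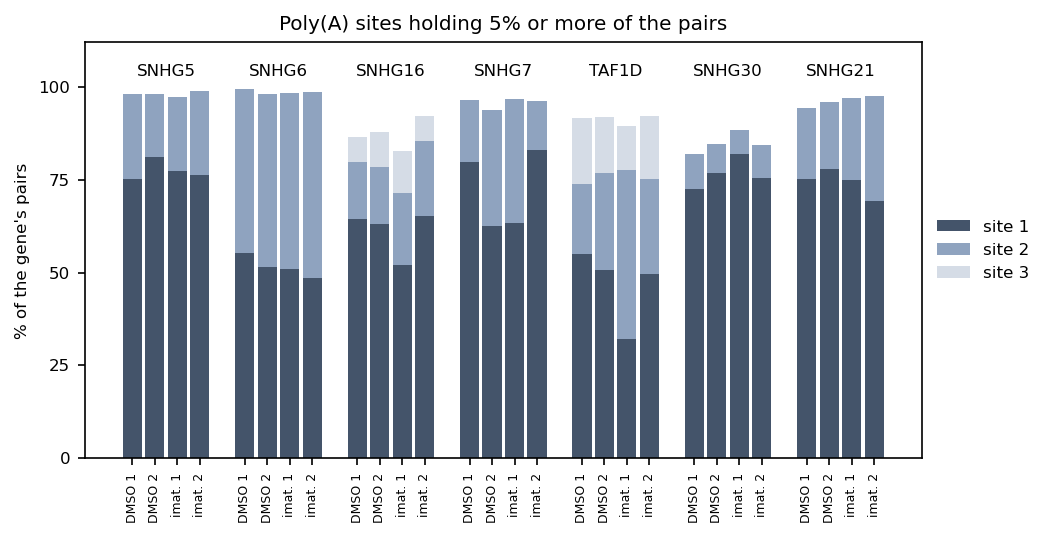
Percent of each gene's read pairs (y axis, 0 to 100) that ended at each poly(A) site holding at least 5% of the pairs, in the 4 libraries of 7 members, with site 1 the most used. The 2 conditions overlap at the main site of SNHG5, SNHG7 and SNHG30 and at the second TAF1D site. They do not overlap at the second SNHG16 site and, narrowly, at the main site of SNHG6 and SNHG21, without a call. The second TAF1D site reaches 45.6% in imatinib replicate 1 and 25.7% in imatinib replicate 2.

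The use of poly(A) sites within a gene was tested with edgeR across the 5063 genes with at least 2 sites, 0.0% of which were called at an adjusted p under 0.05. Of the 9 members tested, 0 were called by the Simes method, 0 had an unadjusted p under 0.05 (the smallest member p was 0.348), and 0 were called by the F test of the same fit. Over all genes 209 had an unadjusted p under 0.05 and the F test called 6. This does not show that site use stayed the same. On simulated counts the test called 17.1% of the genes in which a site changed by 2 on the log2 scale. In TAF1D and SNHG7 the replicates of a condition also stood far apart.

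The pairing of both ends shows which molecules ran across the snoRNAs. The 28 members with at least 100 pairs carry 74 annotated snoRNA or scaRNA genes within their bodies, and 73 lay between the most used start and the most used end of their host. The strand was checked for Gencode entries only, and those from RefSeq were taken by position. In 24 of the 28, more than 90% of the pairs began upstream and ended downstream of every snoRNA of the host. The exceptions were GAS5 (84.6%), SNHG4 (84.1%), TAF1D (59.3%) and SNHG25 (1.1%), whose second annotated snoRNA lies beyond its main end. RACK1, host of SNORD95 and SNORD96A, was spanned by 93.6% of its pairs. These shares describe the RNA ends and not the snoRNA levels, since the mature snoRNAs are not polyadenylated and were not measured here.

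The next comparison asks how much RNA of each host gene was present after imatinib. Levels are counts per 1000000 pairs (CPM, scaled by TMM, a normalization that assumes most genes do not change), and 1 pair stands for 1 molecule, with no correction for how well long molecules are captured. Across 11177 genes that passed the filter on low counts, 9.04% were called higher and 5.83% lower at an adjusted p under 0.05 by edgeR's quasi-likelihood test. Of the 29 members tested, 1 was called higher (SNHG10) and 3 lower (SNHG15, SNHG30, SNHG17), so neither count sets the members apart from other genes. A call together with a log2 change beyond 1.5 was met by 2 members and by 9.86% of all genes. Both imatinib libraries lay above both DMSO libraries in 10 members (30.7% of all genes), below in 7 (28.7% of all genes), and the groups overlapped in 12. The median log2 change was 0.03 in the members and 0.02 in all genes. All pairs of SNHG3, DANCR, SNHG4, SNHG32 and SNHG5, and 98.6% of those of SNHG20, also lay within another annotated gene on the same strand (RCC1, LINC01618 and MATR3 for the first 3 and SEC14L1 for SNHG20), so that their counts cannot be assigned to the host gene alone.

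**Figure D2:**
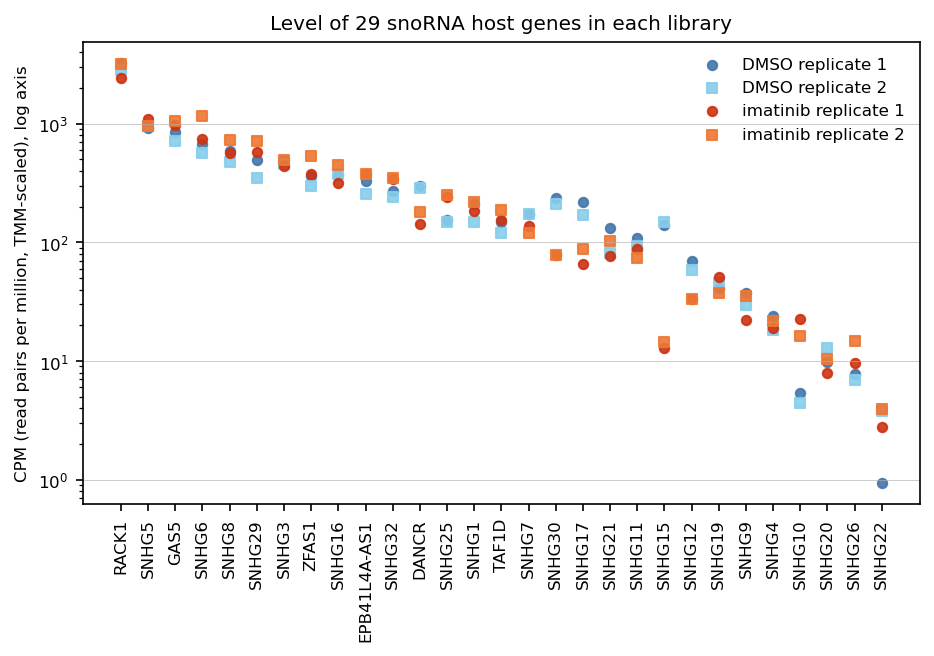
Level of the 29 tested members in each of the 4 libraries, in CPM on a log axis, ordered by their mean. The levels span from 3237 CPM for RACK1 to 0.942 CPM for SNHG22. Both imatinib libraries lie above both DMSO libraries in 10 members (30.7% of all genes) and below in 7 (28.7% of all genes). The called SNHG15, SNHG30, SNHG17 and SNHG10 are among these.

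The 3 members that fell all lacked the tract. SNHG15 (ENSG00000232956.10, chr7:44983019-44986961, minus strand), host of the H/ACA snoRNA SNORA9, stood at 141 and 147 CPM in DMSO and at 13.0 and 14.3 CPM in imatinib. Both imatinib libraries lay an order of magnitude below both DMSO libraries, 10.6-fold lower (144 ± 4.83 against 13.7 ± 0.955, mean ± SD, n = 2), with a log2 change of -3.40, SE 0.31 and adjusted p = 0.000661. The call was also made with each library left out in turn. Such a fit has 1 library in 1 condition, which is assumed to vary like the other condition, so its p can fall with fewer libraries and is no measure of stability. SNHG30 (ENSG00000267321.4, chr17:35568050-35574900, plus strand), host of SNORD7, stood at 235 and 210 CPM in DMSO and 78.9 and 78.6 CPM in imatinib. It was 2.82-fold lower, with a log2 change of -1.50, SE 0.27 and adjusted p = 0.00671, and no left-out library ended the call. SNHG17 (ENSG00000196756.15, chr20:38419638-38435409, minus strand), host of 5 SNORA71 genes, stood at 219 and 171 CPM in DMSO and 65.7 and 88.0 CPM in imatinib. It was 2.55-fold lower, with a log2 change of -1.35, SE 0.29 and adjusted p = 0.0151, a call that was lost without DMSO replicate 1 (adjusted p = 0.117).

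The member that rose was SNHG10 (ENSG00000247092.9, chr14:95521943-95534889, minus strand), the host of the Cajal body RNA SCARNA13 and the only one of the 28 that started at a G. That base held 23.5% and 9.52% of its pairs in DMSO and 18.0% and 6.06% in imatinib. The base 43 nt downstream held 11.8% and 9.52% against 11.2% and 24.2%, so which base leads rests on few pairs. SNHG10 stood at 5.34 and 4.43 CPM in DMSO and at 22.7 and 16.3 CPM in imatinib. The conditions did not overlap, with a 4.05-fold higher mean, a log2 change of 2.02, SE 0.38 and adjusted p = 0.00818, from 160 pairs in all. Without DMSO replicate 2 the adjusted p was 0.0637.

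DANCR and SNHG12 did not overlap between conditions and missed the threshold. DANCR, host of SNORA26, stood at 297 and 288 CPM in DMSO and 142 and 180 CPM in imatinib, a log2 change of -0.87 with SE 0.26 and adjusted p = 0.0533. SNHG12, host of SNORD99 and 3 H/ACA snoRNAs, stood at 69.4 and 58.9 CPM in DMSO and 33.6 and 33.6 CPM in imatinib, a log2 change of -0.93 with SE 0.29 and adjusted p = 0.0597. Both were below both DMSO libraries, and with each library left out the adjusted p ran from 0.00643 (without imatinib replicate 2) to 0.275 for DANCR and from 0.0310 (without the same library) to 0.359 for SNHG12. DANCR also passed with DESeq2 (adjusted p = 0.0360). Both start with the tract, unlike the 3 members that fell.

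Among the members with most pairs, no change was called. RACK1 stood at 3237 and 2813 CPM in DMSO and 2439 and 3186 CPM in imatinib, a log2 change of -0.11 with a 95% interval from -0.59 to 0.38. SNHG5 stood at 922 and 951 against 1097 and 950 CPM, and GAS5, host of 11 annotated snoRNAs and named for its accumulation in growth-arrested cells, at 856 and 708 against 976 and 1048 CPM. The GAS5 log2 change was 0.37 with a 95% interval from -0.10 to 0.84 and adjusted p = 0.327, and both imatinib libraries lay above both DMSO libraries. SNHG6 stood at 674 and 559 CPM in DMSO and 739 and 1161 CPM in imatinib, a log2 change of 0.62 with adjusted p = 0.167. SNHG29, host of SNORD49A, SNORD49B and SNORD65, stood at 489 and 347 against 577 and 709 CPM, a log2 change of 0.62 with adjusted p = 0.153. For SNHG6 and SNHG29 the difference between the imatinib libraries was large beside the difference between conditions, and with each library left out the adjusted p ran from 0.0106 (without imatinib replicate 1) to 0.612 for SNHG6 and from 0.0405 (without the same library) to 0.709 for SNHG29.

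Among the remaining box C/D hosts with at least 1000 pairs no change was called either. SNHG16 stood at 370 and 374 CPM in DMSO and 313 and 449 CPM in imatinib, and SNHG1 at 211 and 147 against 182 and 217 CPM. ZFAS1, which runs antisense to ZNFX1 and carries the SNORD12 family, stood at 364 and 297 against 372 and 536 CPM. The conditions overlapped in SNHG16 and SNHG1, and both imatinib libraries were above both DMSO libraries in ZFAS1, with adjusted p = 0.295. SNHG32, host of SNORD48 and SNORD52, stood at 268 and 239 against 341 and 349 CPM with adjusted p = 0.253. SNHG25, host of SNORD104, stood at 155 and 150 against 241 and 249 CPM, a log2 change of 0.68 with SE 0.25 and adjusted p = 0.0981. The conditions did not overlap in SNHG32 or SNHG25. Its main molecule spans 338 bp, close to the 300 bp minimum for a pair.

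The H/ACA hosts were as mixed. SNHG8, host of SNORA24, stood at 592 and 478 CPM in DMSO and 561.7 and 722 CPM in imatinib. SNHG3, host of SNORA73A and SNORA73B, which act in processing of 18S ribosomal RNA, stood at 494 and 457 against 435 and 494 CPM, a log2 change of -0.03. EPB41L4A-AS1, host of SNORA13, stood at 330 and 253 against 377 and 379 CPM with adjusted p = 0.354. Only the last of these had both imatinib libraries above both DMSO libraries. SNHG7 stood at 173 and 173 against 137 and 120 CPM, a log2 change of -0.43 with SE 0.26 and adjusted p = 0.300. SNHG11, host of SNORA60 and SNORA71E, stood at 108 and 92.6 against 87.3 and 74.1 CPM, and SNHG21, host of SCARNA15, at 132 and 80.8 against 77.4 and 103 CPM. TAF1D, which carries snoRNAs of both classes, stood at 149 and 119 against 155 and 188 CPM. SNHG7 and SNHG11 were lower in both imatinib libraries and TAF1D higher in both, none of them called. The members between 100 and 1000 pairs other than SNHG12 and SNHG10 stood between 6.96 and 50.6 CPM in each library and were not called.

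Set out by start, the 18 members with the tract had 0 calls in either direction, a median log2 change of 0.31, a range from -0.93 to 0.70, and 13 above 0. The 10 without it held the 3 lower calls and the higher call, with a median of -0.33, a range from -3.40 to 2.02, and 2 above 0. Over all genes the median was 0.20 in the 564 with the tract (56 called higher, 13 lower) and -0.06 in the 7875 without it (607 higher, 547 lower). The median stayed above 0 in the tract members and below 0 in the others under each alternative normalization and with each library left out. Whether the start bases bear on the change was not tested.

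**Figure D3:**
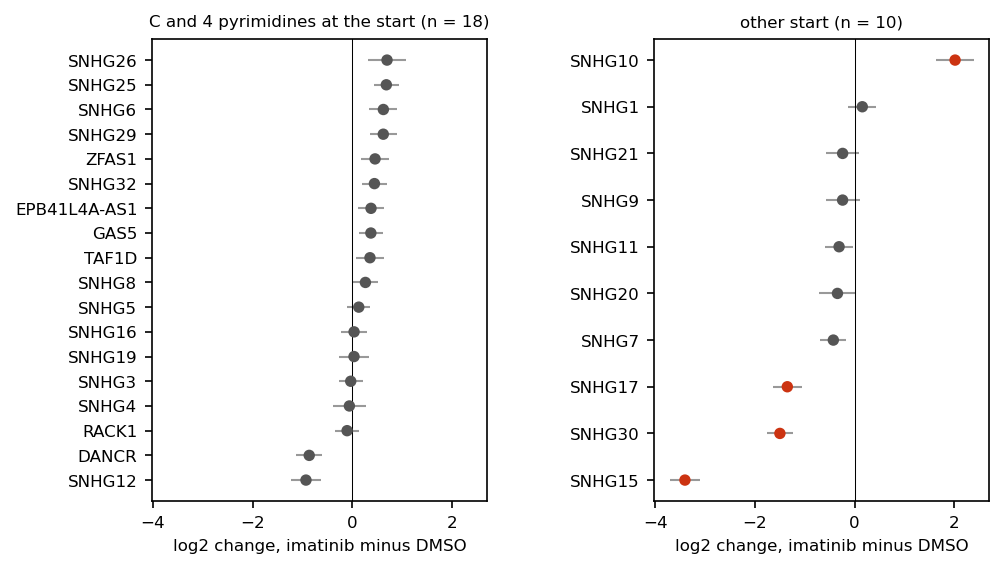
Log2 change after imatinib with its standard error (x axis) for 28 members, 18 with the pyrimidine tract at the most used start on the left and 10 without it on the right, with genes called at an adjusted p under 0.05 in red. The called genes SNHG15, SNHG30, SNHG17 and SNHG10 are all on the right, and the left panel runs from -0.93 to 0.70.

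Proteins that work with snoRNAs were followed as a list. Of 18 genes for snoRNP proteins and their assembly factors, 0 rose and 3 fell, where 9.04% and 5.83% of all genes did, with a median log2 change of -0.72, a range from -1.79 to 0.12, and 1 above 0. NOLC1, a nucleolar and Cajal body phosphoprotein that chaperones snoRNPs, fell by 1.79 on the log2 scale (adjusted p = 0.0106). NOP10, a core protein of H/ACA particles, fell by 1.07 (adjusted p = 0.0220), and RUVBL2, an ATPase of the assembly complex, fell by 0.95 (adjusted p = 0.0403). The median of these genes stayed below 0 in each alternative fit. Of 10 nonsense-mediated decay genes 0 were called in either direction, with a median of -0.10. Of 85 ribosomal protein genes tested, RPL27A rose by 1.16 (adjusted p = 0.0465) and RPL39L fell by 1.31 (adjusted p = 0.0328), with a median of 0.10, which turned negative without DMSO replicate 2 and without imatinib replicate 2.

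The paired ends also allow each combination of a start cluster and a poly(A) cluster, a transcript isoform defined by its boundaries (TIF), to be followed alone. The members held 152 TIFs, 88 of which passed the filter, and 2 were called higher and 11 lower in 8 members. Across the 15303 TIFs tested, 6.76% were called higher and 5.16% lower. Of the 11 lower TIFs, 6 belonged to SNHG15, SNHG30 and SNHG17, the members that fell as a whole. The adjusted p stayed under 0.05 in every fit with a library left out for 6 of the 13.

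In SNHG15 the start clusters fell together. The TIF from 44986622 to 44983026 stood at 63.3 and 69.2 CPM in DMSO and at 6.32 and 7.86 CPM in imatinib (log2 change -3.24, SE 0.37, adjusted p = 0.00258). The TIF that began at 44986653 stood at 15.7 and 23.2 against 2.20 and 3.44 CPM (adjusted p = 0.00855). Another, which began at 44986584, had 36 and 36 pairs in DMSO and 0 and 0 in imatinib, at least 18.0-fold lower against a floor of 3 pairs (adjusted p = 0.00486). Each of the 3 lay below DMSO in both imatinib libraries. In SNHG30 the main TIF, which begins at 35568131, stood at 123 and 120 against 53.6 and 51.6 CPM, with adjusted p = 0.0245, which was 0.187 without DMSO replicate 1 and 0.178 without DMSO replicate 2. A downstream SNHG30 start at 35568169 had 13 and 21 pairs in DMSO and 0 and 0 in imatinib, at least 8.51-fold lower (adjusted p = 0.0108). The called SNHG17 TIF, which begins at 38435344, stood at 56.5 and 50.7 against 19.8 and 26.5 CPM, with adjusted p = 0.0438, which was 0.290, 0.207 and 0.0848 without DMSO replicate 1, DMSO replicate 2 and imatinib replicate 1.

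Other TIFs fell inside genes that were not called as a whole. RACK1 molecules that began at 181243863, which is 39 nt downstream of the main start, stood at 273 and 294 CPM in DMSO and 73.7 and 111 CPM in imatinib (log2 change -1.62, SE 0.29, adjusted p = 0.00951). Those that began at 181243819 stood at 16.6 and 16.9 against 3.57 and 2.95 CPM, with adjusted p = 0.0117. Both RACK1 calls held with each library left out, with adjusted p up to 0.0257 and 0.0382. A further RACK1 start, at 181241890 inside the gene, stood at 12.4 and 12.1 against 3.30 and 2.95 CPM (log2 change -1.95, SE 0.46, adjusted p = 0.0245), a call lost without either DMSO library (adjusted p 0.111 and 0.119). SNHG16 molecules that began at 76557806, 37 nt downstream of the main start, stood at 17.4 and 21.7 against 3.30 and 6.88 CPM (adjusted p = 0.0248, lost without DMSO replicate 2 at 0.122 and without imatinib replicate 1 at 0.0509). DANCR molecules from a start at 52712404 stood at 5.62 and 8.34 against 0.275 and 1.97 CPM (adjusted p = 0.0334, lost without the same libraries at 0.187 and 0.100). In each case the main start of the same gene gave more pairs.

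The 2 TIFs that rose ended away from the main poly(A) site. TAF1D molecules from the main start to the poly(A) site upstream of the snoRNAs stood at 15.4 and 20.0 CPM in DMSO and 60.8 and 42.3 CPM in imatinib (log2 change 1.54, SE 0.36, adjusted p = 0.0238). SNHG29 molecules that ran from the main start to 16463986, beyond the main end, stood at 5.91 and 6.88 against 25.6 and 14.3 CPM (log2 change 1.65, SE 0.44, adjusted p = 0.0387). The TAF1D call was lost without DMSO replicate 1 (adjusted p = 0.221) or DMSO replicate 2 (0.0978). The SNHG29 call was lost without these libraries (0.237 and 0.186) and without imatinib replicate 1 (0.106).

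How the starts are shared within a gene was tested separately from its level, with 1.16% of the 3111 genes with at least 2 start clusters called. Of 9 members tested, 3 were called: SNHG16, RACK1 and EPB41L4A-AS1, each with adjusted p = 0.0411 by the Simes method in edgeR. The F test of the same fit called 4 members, the same 3 and TAF1D (adjusted p = 0.0359), and 117 genes in all. In each of the 4, the second cluster, 29 to 39 nt downstream of the main one, took a smaller share after imatinib. The calls rested on all 4 libraries: none of the 3 was called without DMSO replicate 1, DMSO replicate 2 or imatinib replicate 1, with adjusted p from 0.156 to 0.872, and RACK1 alone was called without imatinib replicate 2. The second starts are given as 30 bases of hg38 with the start base and the next 4 bases in capitals, and none of them holds the tract.
SNHG16 second start, chr17:76557796-76557825, plus strand: agacatggccACTCCagtcggtgttgagca
RACK1 second start, chr5:181243844-181243873, minus strand: ttgtggtgctAGTTTctctaagccatccag
EPB41L4A-AS1 second start, chr5:112160884-112160913, plus strand: agcttgctgtGGTTTttgctctgggtcctc
TAF1D second start, chr11:93741444-93741473, minus strand: ggaggtcggcTGGTTatcgggagttggagg

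The second SNHG16 cluster, 37 nt downstream, held 9.69% and 10.5% of its pairs in DMSO and 2.27% and 3.08% in imatinib, a log2 change of -1.96 relative to the rest of the gene. The second RACK1 cluster, 39 nt downstream, held 8.98% and 10.6% against 2.81% and 3.52%, a relative log2 change of -1.64. In EPB41L4A-AS1, 29 nt downstream, the shares were 13.8% and 15.2% against 4.79% and 4.96%, a relative log2 change of -1.70. In all 3 the replicates of a condition lay close together and the conditions did not overlap. TAF1D, 31 nt downstream, had 10.9% and 7.28% against 2.96% and 2.89%. SNHG15 had 8.04% and 5.15% of its pairs 38 nt downstream in DMSO and 0 pairs there in imatinib, with 51 and 29 pairs left in the imatinib libraries and adjusted p = 0.233. SNHG8 moved the other way in position only, since its second cluster lies 35 nt upstream of the main one, and its share was 26.9% and 27.9% in DMSO against 20.4% and 20.1% in imatinib, without a call.

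**Figure D4:**
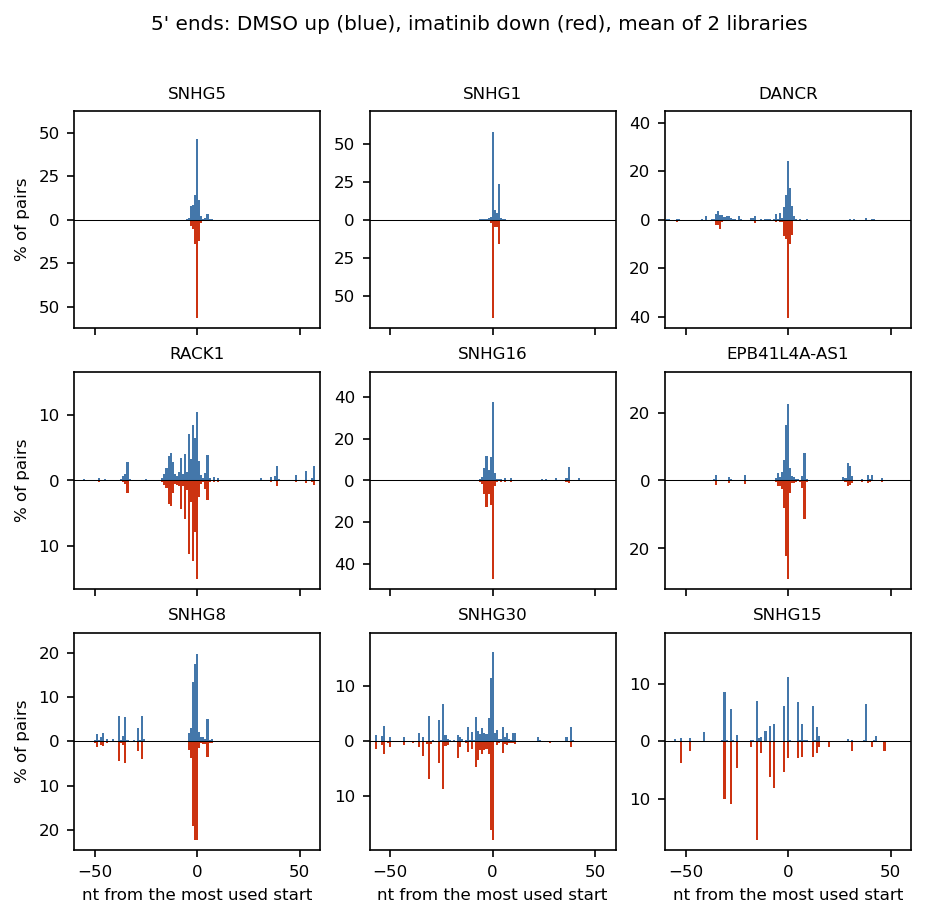
Percent of a gene's read pairs that began at each base from 60 nt upstream to 60 nt downstream of the most used start in 9 members, with the DMSO mean of 2 libraries drawn upwards and the imatinib mean downwards and a separate y scale in each panel. The cluster 29 to 39 nt downstream in RACK1, SNHG16 and EPB41L4A-AS1 is smaller in imatinib, and SNHG5 and SNHG1 show almost single bases.

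The same direction was seen across the members when each gene's main start cluster was taken as a share of its pairs, a measure added after the start test had been seen. Its share was higher in both imatinib libraries than in both DMSO libraries in 17 of 26 members with at least 20 pairs in each library (28.1% of 6327 genes), and lower in 1, SNHG1 (19.9% of genes). SNHG1 was lower only narrowly, with 93.0% and 93.0% in DMSO against 92.9% and 91.8% in imatinib. The median share in members was 80.0% and 79.3% in DMSO and 84.8% and 86.0% in imatinib, while over all genes it was 41.8% and 41.7% against 41.4% and 43.3%. Deeply covered genes separate more easily: among the 1725 genes with at least 2000 pairs the share was higher in 36.2%, and in ribosomal protein genes in 51.8%. The median share in those 1725 genes was 73.3% and 72.4% in DMSO against 73.2% and 75.9% in imatinib. A cluster holds only positions with enough pairs, so it is narrower in genes with few pairs. The medians of members and of all genes were not matched for depth. Of the members, 14 of the 18 with the tract and 3 of the 8 without it showed the higher share. EPB41L4A-AS1 had 68.3% and 65.0% in DMSO and 84.3% and 84.2% in imatinib, and TAF1D had 58.6% and 62.0% against 76.5% and 76.1%. These were the members with the widest gap between conditions, beside SNHG8 with 65.5% and 65.7% against 75.5% and 76.9%.

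**Figure D5:**
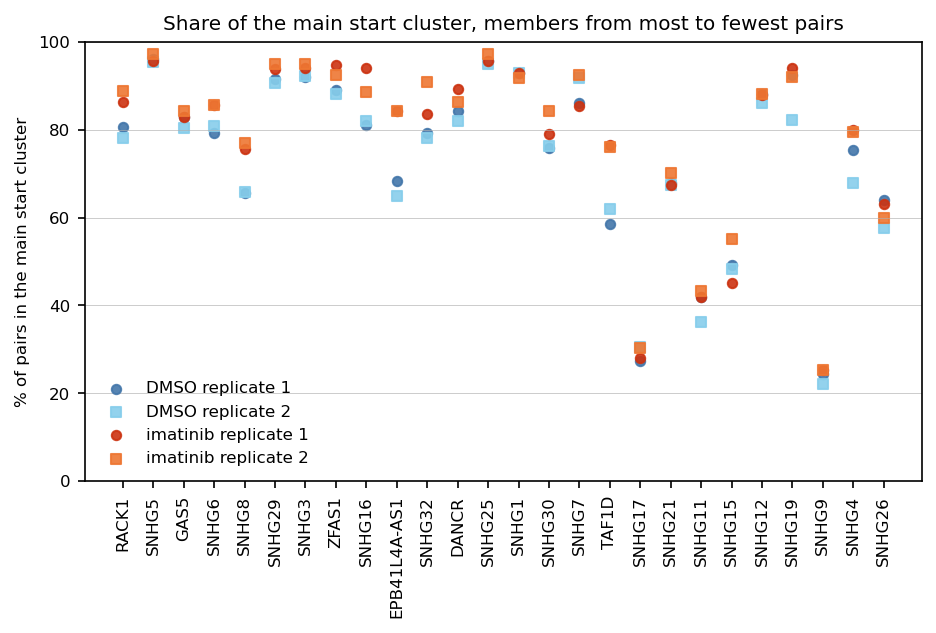
Percent of each member's read pairs that began in its main start cluster (y axis, 0 to 100) in the 4 libraries, for 26 members ordered from most to fewest pairs. The imatinib libraries lie above both DMSO libraries in 17 members, with EPB41L4A-AS1, TAF1D and SNHG8 the most separated, and narrowly below in SNHG1.

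Pairs that began 15 to 60 nt downstream of the most used base were a smaller share in both imatinib libraries in 15 of 26 members (39.0% of all genes, 55.5% of genes with at least 2000 pairs) and a larger share in 2 (10.4% of all genes). In ribosomal protein genes the smaller share was found in 85.9%. The median of this share in members was 2.72% and 2.40% in DMSO and 0.957% and 0.711% in imatinib, and over all genes 7.84% and 8.26% against 5.91% and 6.45%. SNHG6 had 14.7% and 12.8% against 6.99% and 7.41%. The count in the members was near that of genes with at least 2000 pairs and below that of ribosomal protein genes, and these differences were not tested.

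The share at the single most used base was higher in both imatinib libraries in 16 of 26 members (26.9% of all genes) and lower in 3 (19.6% of all genes). Among genes with at least 2000 pairs it was higher in 37.1% and lower in 14.9%, and in ribosomal protein genes it was higher in 80.0%. DANCR had 25.2% and 22.8% at that base in DMSO and 40.3% and 41.2% in imatinib. SNHG1 had 58.2% and 57.5% against 66.8% and 63.3%, while the base 3 nt downstream, the next most used, had 24.0% and 22.6% against 13.4% and 18.2%. In SNHG1 the move was thus between bases of 1 cluster, whose share as a whole did not rise. SNHG7 had 52.9% and 55.0% against 66.0% and 69.5%, and RACK1 had 10.8% and 10.1% against 13.7% and 16.5%. SNHG5 overlapped, with 51.2% and 41.9% in DMSO and 46.8% and 66.9% in imatinib. SNHG17, SNHG11 and SNHG15 were the 3 with a lower share. The base was taken from all pairs together, which come mostly from DMSO in SNHG15. The most used base of each library on its own held 10.9% and 11.6% of SNHG15 pairs in DMSO and 13.7% and 20.7% in imatinib. The largest share over many bases runs high where pairs are few, as in SNHG15 after imatinib, so these values cannot decide the direction. With the most used base of each library on its own, SNHG11 and SNHG17 overlapped between conditions. The lower share in these genes was thus seen only with the base taken from all pairs.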

How the data were processed

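TIF-Seq2 libraries of K562 cells were analysed (2 DMSO, 2 imatinib). The deposited values are counts of read pairs per pair of end positions on hg38. To make these counts the authors dephosphorylated and then decapped total RNA, primed it with oligo-dT, trimmed reads with Cutadapt 1.16, aligned both ends with STAR 2.5.3a using Gencode v27 junctions, and removed duplicates by an 8 bp molecular identifier. All columns of these files were used (0 left out). The libraries held 2263121 to 5135829 read pairs. Counting intervals and floors cover counting error only. PacBio reads and 3′T-fill libraries were not used here.

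Following the methods of the study, pairs were dropped when the 10 nt downstream of the 3′ end held at least 7 A (7.82 to 9.80% of pairs) or when their ends were under 300 bp or over 2 Mb apart (1.43 to 2.33%). A pair counted for every Gencode v44 gene that held both ends within 1 kb of its body on the same strand. Before joining, a position was kept only if it reached 1 normalized count, on a power-law scale fitted to each library, in at least 2 libraries. In a library this took 5 to 11 pairs for 5′ ends and 2 to 3 pairs for 3′ ends. Sites and TIFs of genes with few pairs are therefore limited by depth. Start clusters and poly(A) sites were made by joining the kept positions up to 10 bp apart, and a TIF needed at least 4 pairs. Counts were tested with edgeR 4.0.16 (TMM factors 0.950 to 1.04, filterByExpr, quasi-likelihood test, Benjamini-Hochberg adjustment over all features) in R 4.3.3, and the use of sites within genes with edgeR's diffSpliceDGE. DESeq2 1.42.0, relative log expression factors, no filter, the replicate number as a block, each library left out, other margins and other definitions of sites were alternatives. An exact permutation test of 2 against 2 libraries cannot give a two-sided p below 0.333, so none is used. Sequences were read with pysam 0.24.0 from the hg38 reference. Gencode v44 gave the snoRNA positions, and RefSeq those it lacked, without a check of their strand.

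On simulated counts, 81.2% of genes changed by 2 on the log2 scale and 9.28% of those changed by 1 were called, so smaller changes can be missed. For TIFs the shares were 59.8% and 8.79%. For the use of sites within a gene, with a site changed by 2, they were 17.1% for poly(A) sites and 32.8% for start clusters. Replicates correlated at r = 0.978 in DMSO and 0.951 in imatinib (log2 CPM) and differed beyond sampling noise. The members, the gene lists and the tests were chosen with earlier results of these data known. Members with at least 100 pairs could be named, and those with at least 1000 pairs or a call are given library by library. Start windows are printed for the 8 members with most pairs and for those of the 20 with most pairs that lack the tract, with the exception of SNHG6, and poly(A) windows where a result turns on one. From the other lists up to 4 called genes of largest change are named.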

Additional observations from a re-analysis of the deposited data

How the results depend on the processing

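Of the values for single members and their TIFs and sites under all alternatives, 561 kept their side of the threshold, 39 lost the call and 14 gained one. Among them 0 reversed direction with a call in either fit. A reversal without a call in either fit is counted among the 561, and for the use of sites only the side of the threshold was compared. The counts of member genes called (3 lower, 1 higher) became 5 lower with no filter on low counts, and 2 to 5 lower (5 without imatinib replicate 2) and 0 to 3 higher with each library left out (0 without DMSO replicate 2, 3 without imatinib replicate 1). Calls over all genes (1662) became 2555 with no filter and 694 to 3403 with a library left out (1051 and 694 without DMSO replicates 1 and 2, 3403 without imatinib replicate 2). Member TIFs called (13) became 22 with no filter and 5 to 23 with a library left out (5 without DMSO replicate 2, 20 and 23 without imatinib replicates 1 and 2), and all TIFs called (1824) became 1129 with DESeq2, 2998 with no filter and 666 to 3533 with a library left out (898 and 666 without DMSO replicates 1 and 2, 3533 without imatinib replicate 2). Members with a changed use of start clusters (3) became 0 to 1 with a library left out, and all such genes (36) became 77 with sites of at least 2%, 117 with the F test and 0 to 20 with a library left out (0 without either DMSO library, 3 and 20 without imatinib replicates 1 and 2). Genes with a changed use of poly(A) sites (0) became 6 with sites of at least 2%, 6 with the F test and 0 to 13 with a library left out (6 and 13 without imatinib replicates 1 and 2), and none was a member.

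Libraries of the same replicate number in the labels did not deviate together (correlation of their deviations from the group means -0.263). The labels give only the number, and the source of these deviations was not tested. With the replicate number as a block, 1038 genes were called in place of 1662, SNHG17 had adjusted p = 0.0521, 10 of the 13 member TIFs were called, and the start cluster calls became 0 in members and 0 over all genes. With the crossed pairing as a block, added after seeing the data, 5 members were called lower, 4 higher and 3113 genes in all.

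The descriptions depend on their definitions. The median share at the most used start became 63.0% in members (from 33.0%) and 23.5% over all genes (from 15.9%) when taken within 2 nt. The median width became 4.0 nt in members and 42.0 nt over all genes between the 25th and 75th percentiles, and over all genes 5124 nt with all pairs, 5424 nt with genes of at least 30 pairs and 2249 to 3759 nt with a library left out. The share with at least 2 poly(A) sites (32.1% of members, 54.5% of all genes) became 57.1% and 64.0% with sites of at least 2%, 28.6% and 41.2% with sites of at least 10%, 28.6% and 53.2% with positions joined at 24 bp, and 35.7% and 57.2% with 3′ ends before A-rich sequence kept. The tract over all genes (6.68%) became 5.66%, 5.63%, 8.70% and 7.94% when the most used start came from 1 library alone (both DMSO libraries, then both imatinib libraries), and 8.29% with C and 3 pyrimidines. The hexamer over all genes (83.8%) became 67.1% for AATAAA alone, 81.5% with 3′ ends before A-rich sequence kept and 82.8% with genes of at least 30 pairs. The cause of these changes was not tested beyond what each definition alters. Without the TMM factors, an alternative added after seeing the data, the median log2 change over all genes shifted by 0.0421. With 2 libraries a condition, many changes of 1 or less on the log2 scale can be missed: on simulated counts 9.28% of the genes changed by 1 were called. Fewer genes changed in the simulation than were called in the data, so this share may be too low for the data.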

Other observations

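Some molecules of the host genes began or ended at the edge of a snoRNA, a measure chosen after the data had been seen and given as a description. Of 77 snoRNA genes in members with pairs, 33 had at least 1 pair that began within 5 nt of the snoRNA's 5′ end and 5 (6.49%) had at least 20, in 4 hosts. Of 252 snoRNA genes in other genes with at least 100 pairs, 61 had at least 1 and 3 (1.19%) had at least 20. These shares were not matched for the depth of the host, and RACK1 (39673 pairs) and GAS5 (12035 pairs) are among the 4 hosts. The member set also includes RefSeq snoRNAs, while the other set holds Gencode ones only. Whether such starts are more frequent in members was therefore not tested. Starts and ends were counted over all pairs on the host's strand, wherever their other end lay, and percentages set these counts against the host's pairs. The 370 such starts equal 0.267% of the members' pairs. The windows show 30 bases of hg38 with the most used start base and the next 4 bases, or the poly(A) hexamer, in capitals.
RACK1 start at SNORD96A, chr5:181241871-181241900, minus strand: aattagagggTCCTGgtgatgacagatggc
GAS5 start at SNORD74, chr1:173867724-173867753, minus strand: ctcgtgccctGCCTCtgatgaagcctgtgt
SNHG17 start at SNORA71C, chr20:38429785-38429814, minus strand: gccctttctgCCCCTgcattcgaaagtgat
SNHG17 start at SNORA71A, chr20:38427424-38427453, minus strand: tctgtttctgCTCCTgcatccgaaagtgat
GAS5 end at SNORD81, chr1:173864145-173864174, minus strand: ttgatgacAATAAAatatctgatattctgc

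At SNORD96A, in an intron of RACK1 (chr5:181241814-181241892), 122 pairs began within 5 nt of the 5′ end, 42 and 62 in the DMSO libraries and 12 and 6 in the imatinib libraries, and 88 of them began at the same base, 2 nt inside. The 100 nt upstream held 0 starts. The 122 pairs equal 0.308% of the RACK1 pairs and include the RACK1 TIF that fell inside the gene. At SNORD74 in GAS5, 40 pairs began near the 5′ end, 9 and 25 in DMSO and 6 and 0 in imatinib, with 50 more in the 100 nt upstream. SNHG17 had 25 pairs that began at SNORA71C and 23 at SNORA71A, and SNHG7 had 41 at SNORA17A.

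At the other edge, 422 pairs on the GAS5 strand ended within 5 nt of the 3′ end of SNORD81, 150 and 128 in DMSO and 90 and 54 in imatinib. Their number equals 3.51% of the GAS5 pairs. Of these, 343 ended at 1 base directly beyond the snoRNA. The window before that base holds AATAAA, which lies within the snoRNA. At the 3′ end of a snoRNA in SNHG22, 31 pairs on that strand ended within 5 nt, which equals 77.5% of the 40 pairs of SNHG22. Whether these ends are cut or trimmed RNA was not tested.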
